A study of Chlorocebus sabaeus with 4 samples.

Results

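The genes described here are 10 that are characteristic of the oocyte, the egg cell that grows inside the ovarian follicle. They were chosen by name, from 19775 genes measured in all, with earlier results of the same arrays in view, in which some of them stood out in 1 sample. Those values are therefore given as a description, without a test. Their 12 probe sets, the groups of short probes that read 1 transcript, were found through the symbols of the array annotation. RefSeq's annotation of the vervet assembly mChlSab1.0.hap1 holds all 10 symbols. Of the genes, 9 had probe sets of their own, 11 in number. ZP3 had only a probe set that also carries the symbol POMZP3, so it was kept out of the counts and is described separately.

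RNA of frozen corpus luteum came from 2 adult female vervet monkeys (Chlorocebus sabaeus) aged 16 years. Monkey 1031 was on calorie restriction and gave samples 2 and 1, and monkey 1030 was fed ad libitum and gave samples 2 and 1. The corpus luteum is the gland that the ovulated follicle turns into, and it makes progesterone. Weight change was to be measured within each animal. The order of collection is not in the labels, so a change is the log2 signal of sample 2 minus that of sample 1. With 1 animal per diet and 1 array per sample there were no replicates, and no difference has an error or a p-value. Ad libitum sample 2 stood apart from the other samples across all genes. It was 2-fold from each of them in 1144 to 1280 genes, whereas the other 3 were 2-fold from each other in 158 to 475. In such bulk tissue, fewer cells of a type and less RNA per cell cannot be told apart.

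An oocyte stores messenger RNA and protein for the early embryo, and several of its proteins are made in few other cells. It is surrounded by the zona pellucida, a coat of glycoproteins that sperm must cross. It also secretes growth factors that act on the granulosa cells around it. The corpus luteum forms after the egg has left. Whether follicles with oocytes were sampled together with the luteal tissue was not tested.

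The level that counts as background was set in each sample at the 95th percentile of 161 probe sets for 133 olfactory receptors, bitter taste receptors and keratin-associated proteins. These are genes not known for expression in this tissue. The limit was a log2 signal of 4.84 in calorie restriction sample 2, 4.75 in calorie restriction sample 1, 4.62 in ad libitum sample 2 and 4.75 in ad libitum sample 1. Between samples 2 and 1, these background probe sets changed with an SD of 0.22 in the calorie restriction animal and 0.23 in the ad libitum animal, and none of them changed 2-fold. A gene counted as above background where at least 1 of its probe sets was. Genes with more probe sets can pass more easily. The 9 genes had 11 probe sets and all 19775 genes had 41091, so their shares are not strictly alike.

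The oocyte genes that rose above background did so mainly in ad libitum sample 2. In calorie restriction sample 2, 2 of the 9 genes were above it, where 56.0% of all genes were. In calorie restriction sample 1 there were 2, against 57.2% of all genes. In ad libitum sample 2 there were 6, against 59.7% of all genes, and in ad libitum sample 1 there were 2, against 57.3%. GDF9 and ELAVL2 were above background in all 4 samples, as were 53.7% of all genes. ZP4, ZAR1, FIGLA and NLRP5 were above it in ad libitum sample 2 and in no other, a pattern shown by 2.34% of all genes. With the 99th percentile as limit, or with testis, retina and liver genes as background, ZP4 and ZAR1 kept this pattern and FIGLA and NLRP5 were below background throughout. ZP2, DDX4 and BMP15 were below it everywhere, as were 38.3% of all genes. Of the members on either side of the limit in ad libitum sample 2, FIGLA at 4.91 lay nearest above it and ZP2 at 4.47 nearest below.

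**Figure D1:**
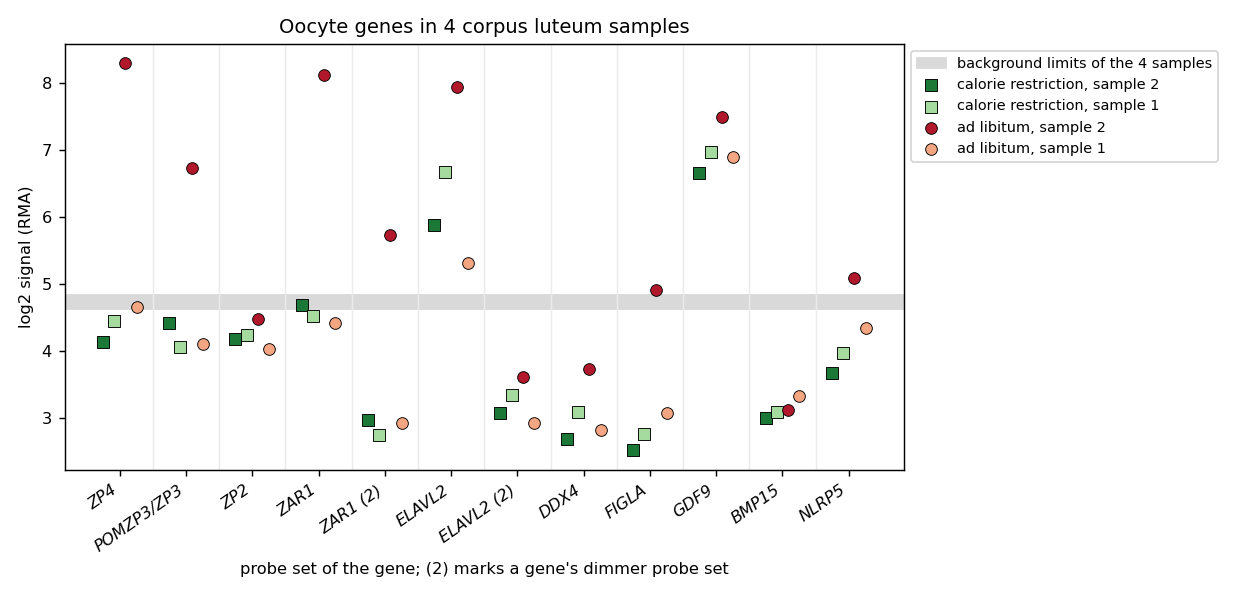
Log2 signal (vertical axis) of each probe set of the 10 genes (horizontal axis) in the 4 samples, 1 point per array. The grey band spans the background limits, 4.62 to 4.84. ZP4, POMZP3/ZP3 and both ZAR1 probe sets lie above the band in ad libitum sample 2 and within or below it in the other 3 samples.

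Among the egg coat genes, ZP4 had the largest difference. ZP4 encodes a zona pellucida glycoprotein present in primates. Its signal was 4.13 and 4.44 in calorie restriction samples 2 and 1, and 8.30 and 4.65 in ad libitum samples 2 and 1. Ad libitum sample 2 alone was above background and stood far above the other 3, which spanned 0.53. The measured difference in the ad libitum animal was 3.64. Because sample 1 was below background, only a bound can be given against its limit, and by it ZP4 was at least 11.6-fold higher in sample 2.

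ZP3 encodes the coat protein that pairs with the others into filaments. The probe set that carries both its symbol and POMZP3 read 4.42 and 4.06 in calorie restriction samples 2 and 1. In ad libitum samples 2 and 1 it read 6.73 and 4.10. It too was above background in ad libitum sample 2 alone and at least 3.94-fold higher there than in sample 1. In human, POMZP3 is a fusion gene that contains ZP3 sequence, and its symbol was not matched in the vervet annotation.

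POMZP3 also has a probe set of its own, which is no member. It read 3.17 and 3.15 in calorie restriction samples 2 and 1, and 8.49 and 3.74 in ad libitum samples 2 and 1, at least 13.3-fold higher in ad libitum sample 2 than in sample 1. Both probe sets thus showed the pattern of ZP4. Which vervet transcripts they read was not tested.

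ZP2, which takes part in sperm binding, did not show that pattern. Its signal was 4.18 and 4.23 in calorie restriction samples 2 and 1, and 4.47 and 4.03 in ad libitum samples 2 and 1. All 4 values were below background, so no fold is given. Within these limits the highest was again ad libitum sample 2, by 0.24 over the next.

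Of the genes for RNA-binding proteins, ZAR1 moved most. ZAR1 binds stored maternal messenger RNA in growing oocytes. Its brighter probe set read 4.68 and 4.52 in calorie restriction samples 2 and 1, and 8.12 and 4.42 in ad libitum samples 2 and 1. Ad libitum sample 2 was at least 10.3-fold higher than sample 1, whose signal was below background.

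The second ZAR1 probe set read 2.96 and 2.73 in calorie restriction samples 2 and 1, and 5.73 and 2.92 in ad libitum samples 2 and 1. It gave a measured difference of 2.81 in the ad libitum animal and a bound of at least 1.96-fold. The ZAR1 probe sets thus had the same pattern at different signal levels, and both were above background in ad libitum sample 2 alone.

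ELAVL2, an RNA-binding protein of neurons that is also made in mouse oocytes, had a different profile. Its brighter probe set read 5.87 and 6.66 in calorie restriction samples 2 and 1, and 7.94 and 5.31 in ad libitum samples 2 and 1. All 4 values were above background. It was 6.19-fold higher in sample 2 of the ad libitum animal and 1.73-fold lower in sample 2 of the calorie restriction animal. Apart from ad libitum sample 2, the highest level was in calorie restriction sample 1.

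Its other probe set was below background in all 4 samples, at 3.07 and 3.35 in calorie restriction samples 2 and 1, and 3.60 and 2.91 in ad libitum samples 2 and 1. The order of the 4 samples was the same in both ELAVL2 probe sets. With the mean of both, the change in the ad libitum animal was 1.66.

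DDX4, the germ cell RNA helicase also known as VASA, stayed below background. It read 2.68 and 3.09 in calorie restriction samples 2 and 1, and 3.73 and 2.82 in ad libitum samples 2 and 1. Ad libitum sample 2 was the highest of the 4, by 0.64 over the next, but at a level where background probe sets also lie.

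FIGLA, a transcription factor that in mouse is needed for the expression of the zona genes, read 2.51 and 2.76 in calorie restriction samples 2 and 1, and 4.91 and 3.07 in ad libitum samples 2 and 1. The measured difference of 1.85 in the ad libitum animal was past 2-fold. Its signal in sample 2 was only 0.30 above the limit, so the bound came to at least 1.12-fold.

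NLRP5 is a part of the subcortical maternal complex, a protein assembly of the oocyte needed by the early embryo in mouse. It read 3.67 and 3.97 in calorie restriction samples 2 and 1, and 5.08 and 4.33 in ad libitum samples 2 and 1. It was above background in ad libitum sample 2 alone, at least 1.25-fold higher than in sample 1.

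The growth factors secreted by the oocyte did not share the profile of ZP4 and ZAR1. GDF9 read 6.66 and 6.96 in calorie restriction samples 2 and 1, and 7.49 and 6.90 in ad libitum samples 2 and 1. It was higher by 0.59 in sample 2 of the ad libitum animal. Its 3 other values, which lay within 0.31 of each other, were also above background. BMP15, its close relative, read 2.995 and 3.09 in calorie restriction samples 2 and 1, and 3.11 and 3.32 in ad libitum samples 2 and 1. BMP15 was the one of the 9 genes whose signal was not highest in ad libitum sample 2, where 32.6% of all genes had their highest value.

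Across the 9 genes, the brighter probe set was measured 2-fold or more higher in ad libitum sample 2 than in sample 1 for 4, namely ZAR1, ZP4, ELAVL2 and FIGLA, and 2-fold lower for none. Among all genes 1.96% were higher and 3.83% lower by that rule, and since the genes were chosen with these values in view, nothing is read from the comparison. By the bound against background, 3 of the 4 were at least 2-fold higher, FIGLA being the exception. At 1.5-fold, 7 of the 9 were measured higher, beside 7.04% of all genes, but DDX4 among them was below background in every sample, and by the bound the count was 4. From the top of 19775 genes by measured change, ZAR1 ranked 3, ZP4 ranked 4, ELAVL2 ranked 22 and FIGLA 65. The median change of the 9 was 0.91, beside 0.017 for all genes. That median is the change of DDX4, which was below background in every sample, so its size is unsure.

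In the calorie restriction animal the oocyte genes differed less. None of the 9 was 2-fold higher in sample 2, as 0.349% of all genes were, and none was 2-fold lower, as 0.45% were. ELAVL2 alone was more than 1.5-fold lower, a rule that 2.64% of all genes passed. Changes of the 9 ranged from -0.79 for ELAVL2 to 0.16 for ZAR1, with a median of -0.30 beside 0.0028 for all genes. Of the 9 changes 8 were negative, as were 9762 among all 19775 genes. Apart from ELAVL2 and GDF9 all these genes were below background in both samples of that animal, so the direction of their changes is unsure. These were the changes in 1 animal under calorie restriction and are no test of the diet.

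**Figure D2:**
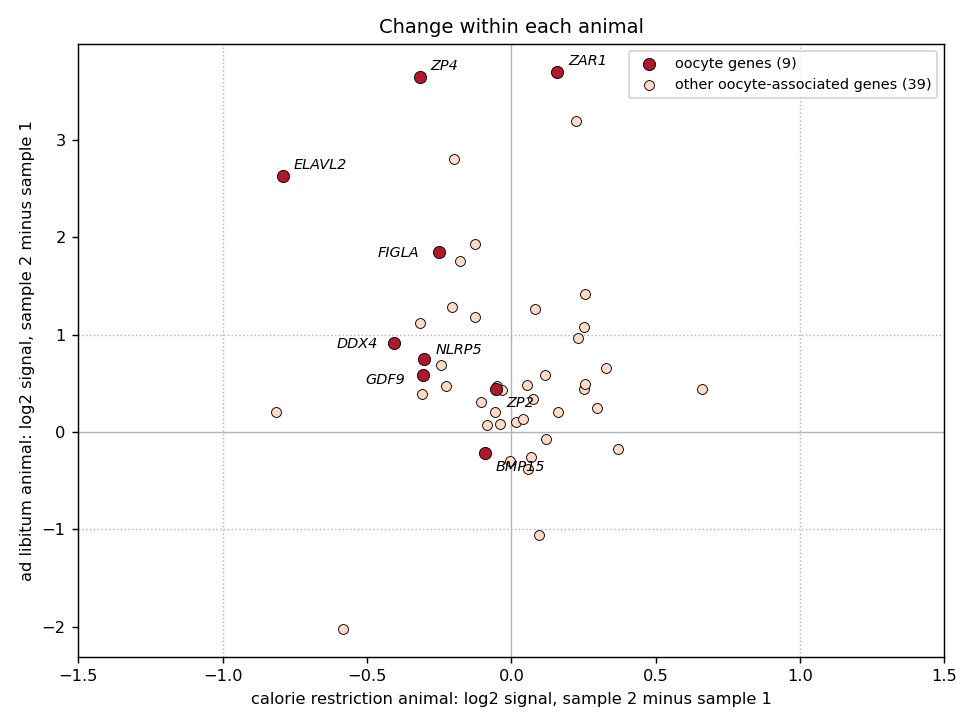
Change in log2 signal between samples 2 and 1 in the calorie restriction animal (horizontal) and the ad libitum animal (vertical). Red points are the 9 oocyte genes and pale points 39 other oocyte-associated genes, and dotted lines mark 2-fold. The spread is vertical, with ZAR1 at 3.70 and ZP4 at 3.64 on top, while no point passes 2-fold in the calorie restriction animal.

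Other genes associated with oocytes were then examined in a list of 48, of which 39 were measured. In the ad libitum animal, 10 were measured 2-fold higher in sample 2 and 2 lower, and the median change was 0.44. Among all genes 1.96% were higher and 3.83% lower. LHX8, 1 of the 10, was below background in every sample. So was BRDT, the gene whose change is that median. By the bound against background, 6 of the list were at least 2-fold higher. In the calorie restriction animal none was 2-fold apart, beside 0.349% of all genes higher and 0.45% lower, and the median was 0.041. Of the 39, 10 and 11 were above background in calorie restriction samples 2 and 1, where 56.0% and 57.2% of all genes were. In ad libitum samples 2 and 1 there were 20 and 10, where 59.7% and 57.3% of all genes were. Above background in ad libitum sample 2 alone were 9, beside 2.34% of all genes, and 19 were below it everywhere, beside 38.3%. With 1 limit for all samples, 6 were above it in that sample alone. ZP1, NLRP13 and MAEL dropped out, their signals there being below even the limit of ad libitum sample 1. NLRP4, NLRP14 and PATL2 were the 3 of the 9 that kept this pattern with the 99th percentile as limit, and likewise with testis, retina and liver genes as background. At the 99th percentile OOEP and TLE6 had it too, for a count of 5.

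PATL2, which represses translation in oocytes, had the largest change of this list. It read 2.89 and 2.67 in calorie restriction samples 2 and 1, and 5.83 and 2.63 in ad libitum samples 2 and 1, at least 2.11-fold higher in ad libitum sample 2 than in sample 1. NLRP14, a relative of NLRP5 expressed in germ cells, read 4.01 and 4.14 in calorie restriction samples 2 and 1, and 6.17 and 4.25 in ad libitum samples 2 and 1, at least 2.68-fold higher. NLRP4, another relative, was at least 2.27-fold higher. Ad libitum sample 2 was the only one in which these 3 genes were above background.

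CPEB1, which controls the poly(A) tails of stored messenger RNA, was above background in all 4 samples and 2.43-fold higher in ad libitum sample 2 than in sample 1. ACTL8 was 2.11-fold higher. NLRP2 had a measured change of 1.18, and MAEL and GTSF1, both of the piRNA pathway that silences transposons in germ cells, had 1.75 and 1.41. All 3 stayed near the limit in ad libitum sample 2, with bounds under 2-fold. The 2 genes lower there were UCHL1, a deubiquitinase of neurons and germ cells, 4.06-fold lower, and the receptor KIT, 2.08-fold lower. Both were above background in every sample, and both are also made in other cells. The average of the UCHL1 probe sets changed by -1.08, and that of the NLRP2 probe sets by 0.68.

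The partners of NLRP5 in the subcortical maternal complex were looked at together after their values were seen. OOEP read 5.12 and 5.03 in calorie restriction samples 2 and 1, and 5.95 and 4.69 in ad libitum samples 2 and 1. It was above background in all but the last and at least 2.30-fold higher in ad libitum sample 2 than in sample 1. KHDC3L read 4.62 and 4.56 in calorie restriction samples 2 and 1, and 5.21 and 4.73 in ad libitum samples 2 and 1. TLE6 read 4.75 and 4.81 in calorie restriction samples 2 and 1, and 5.35 and 5.14 in ad libitum samples 2 and 1. All 4 of these genes had their highest signal in ad libitum sample 2, as did 32.6% of all genes, and only for OOEP was the change 2-fold. For TLE6 the change was 0.20, within the SD of 0.23 of the background probe sets. PADI6, also in the oocyte list, was not measured.

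General germ cell markers were counted as well, although 7 of the 8 measured are also in the oocyte list and the other, DDX4, is described above. Of the 8, 1 was above background in calorie restriction samples 2 and 1 alike, 3 in ad libitum sample 2 and 1 in ad libitum sample 1. Of all genes, between 56.0% and 59.7% were above it in a sample. The one above it throughout was STAG3, of the meiotic cohesin complex. DAZL, a germ cell translation factor, was at 2.40 and 2.24 in calorie restriction samples 2 and 1, and at 2.58 and 2.38 in ad libitum samples 2 and 1. DAZL, like DDX4, was thus below background in every sample.

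To find genes with a like pattern, probe sets of other genes above background in ad libitum sample 2 and at or below it in the other 3 were ranked by how far that sample exceeded the highest of the others. The likeness is over 4 arrays. In all, 934 probe sets (2.27%) were above background in ad libitum sample 2 only, compared with 72 (0.175%) in calorie restriction sample 2 only, 179 (0.436%) in calorie restriction sample 1 only and 230 (0.56%) in ad libitum sample 1 only. Among the 934, ZP4 ranked 3 and the brighter ZAR1 probe set 4 by that excess. These counts depend on the limit: with testis, retina and liver genes as background, 252 probe sets were above it in ad libitum sample 2 only and 555 in ad libitum sample 1 only. With 1 limit for all samples there were 543 and 269.

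The other genes with the largest excess, from the top, were POMZP3, GAD1, OTX2, BCL2L10, FST, DPP6, PATL2, PLA2G7, FABP7, HHIP, SHISA6 and ADRA1A. PATL2 is the one of them in the oocyte list. OTX2, a homeobox factor made in oocytes, read 2.42 and 2.94 in calorie restriction samples 2 and 1, and 6.29 and 2.96 in ad libitum samples 2 and 1, at least 2.90-fold higher in ad libitum sample 2 than in sample 1. BCL2L10, a BCL2 relative abundant in human oocytes, read 3.19 and 3.50 in calorie restriction samples 2 and 1, and 6.82 and 3.50 in ad libitum samples 2 and 1, at least 4.20-fold higher. GAD1, which makes the transmitter GABA, was at least 5.13-fold higher.

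Probe sets of the same gene did not all show this. The second BCL2L10 probe set changed by 0.011 and the second OTX2 probe set by 0.86, below background throughout. Other GAD1 probe sets changed by 0.45 and 1.33. FST, the activin-binding follistatin, and HHIP, a hedgehog antagonist, each had another probe set above background in other samples as well.

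**Figure D3:**
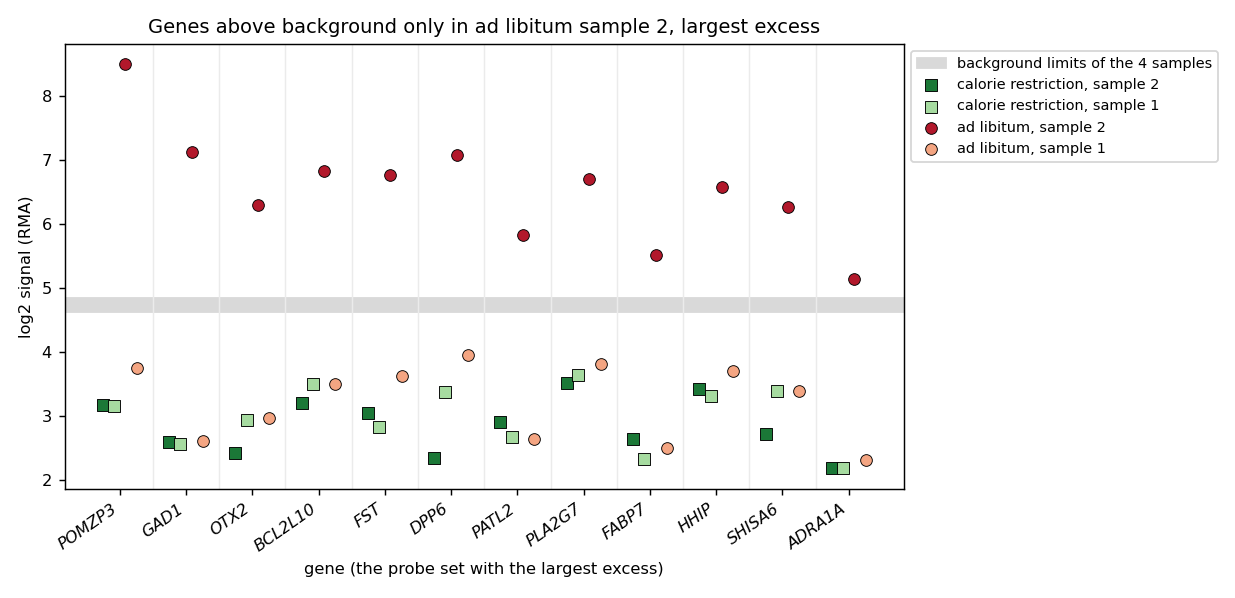
Log2 signal (vertical axis) of the 12 genes, members left out, with the largest excess of ad libitum sample 2 over the other samples (horizontal axis, in order of excess), 1 point per array. The grey band spans the background limits, 4.62 to 4.84. All points but those of ad libitum sample 2 lie below the band, as the choice of genes requires.

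Markers of theca and luteal cells also differed between the samples of the ad libitum animal, in opposite directions. Of 8 measured theca and interstitial markers, which belong to the outer follicle wall, 6 were 2-fold higher in sample 2 and none lower, with a median of 1.38. Among all genes 1.96% were higher and 3.83% lower. When all probe sets of a gene were averaged, 3 of the 8 were higher and the median was 0.63. Their mean log2 signal was 7.47 and 8.22 in calorie restriction samples 2 and 1, and 9.88 and 8.51 in ad libitum samples 2 and 1. INSL3, a theca hormone, changed by 2.66 and HHIP by 2.34.

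Of 11 luteal steroidogenic markers, 10 were 2-fold lower in ad libitum sample 2 and none higher, beside 3.83% and 1.96% of all genes. Their median was -3.68 (-2.19 when all probe sets of a gene were averaged). Their mean was 9.73 and 8.93 in calorie restriction samples 2 and 1, and 7.03 and 10.49 in ad libitum samples 2 and 1. In every sample 10 of the 11 had at least 1 probe set above background, as had 53.7% of all genes. The inhibin subunit INHA changed by -5.32. Aromatase, CYP19A1, changed by -5.96 as measured, its brightest probe set being below background in sample 2. The average of its 7 probe sets changed by -1.43. Of 17 granulosa markers, 4 were higher and 6 lower, beside 1.96% and 3.83% of all genes, with a median of -0.13. INHA and CYP19A1 are in both lists and are among these 6, so the lists are not separate counts. The granulosa mean was 8.42 and 8.54 in calorie restriction samples 2 and 1, and 7.86 and 8.61 in ad libitum samples 2 and 1.

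Because ELAVL2 and GAD1 are best known from neurons, neuron markers were counted too. Of 12, none was higher and 3 were lower in ad libitum sample 2, beside 1.96% and 3.83% of all genes. The lower ones were led by GAP43 (-3.43 as measured, below background in sample 2) and TUBB3 (-1.77). With all probe sets averaged, GAP43 changed by -1.45. In 7 markers the change was positive, as in 10343 of all 19775 genes, so nothing is read from that count. The median of the 12 was 0.14. Their mean was 5.72 and 5.43 in calorie restriction samples 2 and 1, and 5.29 and 5.67 in ad libitum samples 2 and 1. Surface epithelium had a median of -0.033, with none of 11 higher and 2 lower. Of the lower ones, MSLN was below background in every sample. In each sample 3 or 4 of the 11 were above background, where 56.0% to 59.7% of all genes were. Of 9 stroma markers 2 were higher and of 9 endothelial markers 4 were lower, while of 10 macrophage markers 2 were higher and 1 lower. When all probe sets of a gene were averaged, 2 neuron and 2 endothelial markers were lower, 1 macrophage marker was higher and none lower. The part that these cell types have in the signal of the oocyte genes was not tested.

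**Figure D4:**
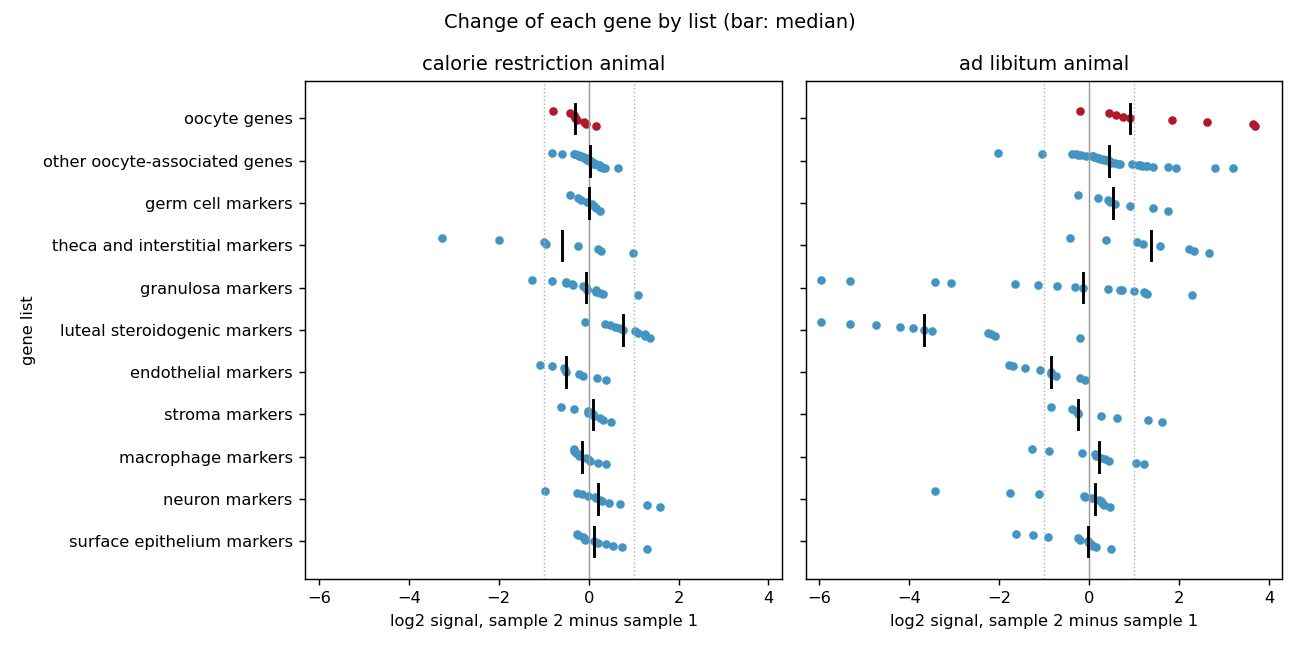
Change in log2 signal between samples 2 and 1 (horizontal axis) of each gene of 11 lists (vertical axis) in the calorie restriction animal (left) and the ad libitum animal (right). Points are genes, black bars medians, and dotted lines 2-fold. In the ad libitum animal the oocyte genes (median 0.91) and theca markers (1.38) lie mainly to the right and the luteal markers (-3.68) to the left. The median of 0.91 is the change of DDX4, which was below background in every sample.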

How the data were processed

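Biotin-labelled cRNA amplified from total RNA was hybridised to 4 arrays, per the labels' protocols. Per probe set, the deposited unit is a log2 signal, made by the authors with Affymetrix Power Tools and RMA, per the submitters' processing notes. Their versions and settings are not stated there. The probes were designed on human genes, and mismatches with vervet sequence can lower a signal. Scanner files and detection calls were not used here. Precision is limited by the number of arrays.

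Of 54675 probe sets, 62 controls, 1801 with several gene symbols and 11721 with none were left out, except the probe set of ZP3 and POMZP3. Of the 19775 symbols, 15504 matched the RefSeq vervet annotation. For signals and changes, the probe set brightest on average over the samples stood for its gene, without a filter on level. In counts of genes above background, any probe set of the gene could pass. Where ad libitum sample 1 was at or below its background limit, a fold is a lower bound, computed against that limit. Values below the limit in both samples have no fold. Higher and lower mean 2-fold.

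The members, the 10 other gene lists and the rules were chosen with earlier results of these data known. Named genes were all members, oocyte-list genes above background in a sample and 2-fold apart within an animal, the 12 genes with the most similar pattern, and the 2 with the largest change in the ad libitum animal in the granulosa, theca, luteal and neuron lists. Placeholder symbols were to be passed over. No test was run. Alternatives were other background limits and lists, cyclic loess and repeated quantile normalisation (limma 3.58.1, R 4.3.3), other choices of probe sets and other folds. Counting was tested on simulated data. Other work used Python 3.11.15 and pandas 2.3.3.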

Additional observations from a re-analysis of the deposited data

Results flagged for a closer look

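For 7 of the 9 oocyte genes the changes between samples 2 and 1 had opposite signs, negative in the calorie restriction animal and positive in the ad libitum animal. No share of all genes with opposite signs stands beside this count, so nothing is read from it. The difference between the animals was not tested, since each has 1 change. The change in the ad libitum animal minus that in the calorie restriction animal was 3.96 for ZP4, 3.42 for ELAVL2, 2.10 for FIGLA, 1.32 for DDX4, 1.05 for NLRP5, 0.89 for GDF9 and 0.50 for ZP2 on the log2 scale. DDX4 and ZP2 were below background in all 4 samples, and in the calorie restriction animal only ELAVL2 and GDF9 were above it. The sign of the other changes in that animal is therefore unsure. For ZP2 the change there was -0.054, beside an SD of 0.22 over the background probe sets.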

How the results depend on the processing

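Of 70 member changes recomputed under alternatives, 66 moved by less than the SD of the background probe sets, 4 moved further and none of those 2-fold apart changed sign. The 4 were the ad libitum change of ZAR1 (3.25 for the average of its probe sets, 2.81 without less specific ones) and ELAVL2 for the average of its probe sets (-0.53 in the calorie restriction and 1.66 in the ad libitum animal). Under the other choices of probe sets, only ZAR1 and ELAVL2 could move, as the other members had a single probe set. The 66 therefore include changes that were fixed in advance. At 1.5-fold, 7 members were measured higher in the ad libitum animal and 1 lower in the calorie restriction animal, beside 7.04% and 2.64% of all genes. At 3-fold, 4 other oocyte genes were higher. No share of all genes at 3-fold stands beside that count, so nothing is read from it. The background limit matters most. Above it in ad libitum sample 2 only were 2 members and 5 other oocyte genes at the 99th percentile, and 2 and 3 with testis, retina and liver genes as background; the 2 were ZP4 and ZAR1 in both. With the median of all probe sets as limit, 4 members passed in calorie restriction sample 1, 5 in ad libitum sample 1, and 2, ZP2 and FIGLA, in ad libitum sample 2 only. No share of all genes past that limit stands beside these counts, so nothing is read from them. Probe sets above background in 1 sample only came, at the 99th percentile, to 19 in calorie restriction sample 2, 482 in ad libitum sample 2 and 638 in ad libitum sample 1. With the other background list they came to 306 and 64 in calorie restriction samples 2 and 1, and 252 and 555 in ad libitum samples 2 and 1. With 1 limit for all samples, the highest of the 4, they came to 206 in calorie restriction sample 2 and 543 in ad libitum sample 2. That limit and the counts for other oocyte genes and for members in ad libitum sample 2 only were added after seeing the data. The average of all probe sets in the cell type lists was added then as well. No paired test was run, since the genes were chosen with these values in view.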
